A study of Mus musculus with 6 samples.

Results

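The miR-29 family was described in exosomes released by RAW264.7, a mouse line of macrophage-like cells. Its members, mmu-miR-29a-3p, mmu-miR-29b-3p and mmu-miR-29c-3p (here without the prefix for mouse), were chosen by name, and all 3 were present among the 598 miRNA names of the deposited table. Wild type cells were either left untreated (M0) or stimulated for 24 h with IL-4 and IL-13, each at 20 ng/mL (M2), and small RNA from the exosomes in the culture supernatant was sequenced in 3 M0-exo and 3 M2-exo libraries. All libraries were labelled as a single batch and came from a single line. Nothing in the labels says whether the replicates were separate cultures, so p-values measure only the spread between these libraries, which may be technical. In the reported edgeR fit this spread was fully shared over miRNAs. A p-value there does not rest on the replicate spread of its own miRNA, and can be small where replicates differ widely. A level here is a share of the miRNA counts of a library, and fewer copies per vesicle cannot be told apart from fewer vesicles that carry the miRNA.

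miRNAs are short RNAs that guide Argonaute proteins to messenger RNAs, mainly through pairing of the seed, bases 2 to 8, with the 3′UTR of the target. The miR-29 family is known for repressing collagens, elastin, fibrillin and other genes of the extracellular matrix, and for repressing the DNA methyltransferases Dnmt3a and Dnmt3b and the survival protein Mcl1. Its members are made from a pair of gene clusters, and miR-29b-3p is made from both.

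The mature sequences are shown because the members share their seed and differ elsewhere, so that a target site for one is a seed match for all. They come from RefSeq on GRCm38.p6, in which all 3 members were matched, and they equal the sequences in the deposited table. Capitals mark the seed.
miR-29a-3p: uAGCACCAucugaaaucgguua
miR-29b-3p: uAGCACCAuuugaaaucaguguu
miR-29c-3p: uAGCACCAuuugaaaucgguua
The leading 9 bases were the same in the 3 members, and so were bases 13 to 16. Counted from 1 at the 5′ end, miR-29c-3p differed from miR-29a-3p by the single substitution C10U, so that 21 of 22 bases were identical. From miR-29a-3p to miR-29b-3p the substitutions were C10U, G18A, U21G and A22U, and miR-29b-3p was 1 base longer, at 23 bases. No other name in the table had this seed, and in RefSeq it was found in 3 of 1679 mature miRNA names, which were these members.

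The hairpins of Mir29a (chr6:31062660-31062747) and Mir29b-1 (chr6:31063023-31063093) lie on the minus strand with 275 bases between them. Those of Mir29b-2 (chr1:195037040-195037120) and Mir29c (chr1:195037547-195037634) lie on the plus strand with 426 bases between them. The mature miR-29a-3p lies at chr6:31062673-31062694 and miR-29c-3p at chr1:195037600-195037621. The same miR-29b-3p sequence lies at chr6:31063025-31063047 and chr1:195037091-195037113, and sequencing of the mature miRNA alone cannot tell these loci apart.

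The match to the seed reads TGGTGCT in a transcript. It was searched on the transcript strand in the longest annotated 3′UTR of each gene (GENCODE M21 on GRCm38), and 2740 of 20972 genes, or 13.1%, held at least 1 match. Of 17 genes listed as targets of the family, 15 held a match and 7 held 2 or more. Among 3′UTRs within 20% of the length of each of these genes, a mean of 15.9% held a match. The genes were listed because they are known targets, so their count is a description and not a finding. A seed match is not evidence of binding, and no messenger RNA was measured.

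Examples with an A after the match, in capitals with it, are shown from genes of the fibrillar and basement membrane collagens, elastic fibres, DNA methylation and cell survival, so that the letters can be read against the seeds above.
Col1a1 (chr11:94952538-94952544, plus strand, the α1 chain of collagen I): ggaatttcTGGTGCTAtagaagc
Col3a1 (chr1:45348982-45348988, plus strand, the chain of collagen III): tgtctcaaTGGTGCTAtaataaa
Col4a1 (chr8:11199762-11199768, minus strand, a chain of basement membrane collagen): tcacaacaTGGTGCTActccccc
Eln (chr5:134703737-134703743, minus strand, elastin): atcaacgtTGGTGCTActgcttg
Fbn1 (chr2:125301174-125301180, minus strand, fibrillin 1): tgtctgttTGGTGCTAgtaaatt
Dnmt3a (chr12:3911474-3911480, plus strand, a DNA methyltransferase): tcccaagcTGGTGCTAattcctc
Mcl1 (chr3:95661859-95661865, plus strand, an inhibitor of apoptosis): cttaaccaTGGTGCTAttcactg
The positions are those of the 7 bases that pair with the seed, and each lies in the 3′UTR. Dnmt3a held 5 matches and Eln held 3, against 1 each in Col1a1, Col3a1, Col4a1 and Mcl1. The 3′UTRs searched differ in length, at 6696 bases for Dnmt3a and 1188 for Eln. They span 959 to 2353 bases for Col1a1, Col3a1, Col4a1 and Mcl1. Among 3′UTRs of similar length, 14.7% held 2 or more matches for Dnmt3a and 0.936% for Eln. Col1a2 and Sparc were listed as targets and held none in the 3′UTR searched.

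The libraries held 863194 to 1453348 counts, and let-7 miRNAs took 74.9% to 77.9% of them. With 0 counts in a library, up to 3 remain possible, which is 2.06 to 3.49 CPM (counts per 1000000). Intervals and such limits cover counting error only, since the sources used here describe no molecular identifiers. The myeloid markers were all present (5 of 5), and their summed level was 1183 to 1516 CPM in M0-exo and 920 to 1174 CPM in M2-exo. Within that list miR-155-5p was called lower (755 to 368 CPM) and miR-223-3p was called higher (13.6 to 41.9 CPM), with separate group ranges for both. The adjusted p of miR-223-3p was 0.0582 in edgeR. The other 3 were not called, among them miR-142a-3p with a log2 fold change of 0.45 (adjusted p = 0.0408, edgeR). Another of the 3, miR-146a-5p, also had separate group ranges (75.0 to 51.0 CPM, adjusted p = 0.492, edgeR). For miR-142a-3p the adjusted p was 0.163 in DESeq2 and 0.0966 in edgeR with a minimum mean of 10 counts. Of 4 serum or blood cell miRNAs, 3 were present, with sums of 95.4 to 157 CPM in M0-exo and 199 to 2613 CPM in M2-exo. Of these, miR-122-5p, a liver miRNA, was called higher in M2-exo, and the other 2 were not called. Its counts were 63, 59 and 51 for M0-exo and 137, 107 and 2184 for M2-exo, so M2-exo replicate 3 stood apart. Without that library its log2 fold change was 1.61 and it was still called, as in 13 of 15 alternatives. miR-122-5p was not called with edgeR's robust variance option (adjusted p = 0.368), nor in DESeq2, which gave it no p-value. Of 6 stromal miRNAs 4 were present, with sums of 23.0 to 36.6 CPM in M0-exo and 43.2 to 82.3 CPM in M2-exo. Of the 4, 1 was called higher in M2-exo, miR-199a-3p, with counts of 1, 0 and 0 against 7, 7 and 19. Its adjusted p was 0.0582 in edgeR. Without M2-exo replicate 3, miR-199a-3p was not called (adjusted p = 0.546, edgeR). The other arm, miR-199a-5p, was at 0 in 5 of the 6 libraries. Their part in the results was not tested.

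The family was detected in every library, and its level did not differ between the groups beyond the spread of the replicates. A miRNA was called changed where its log2 fold change was 0.5 or more in size with an unadjusted p-value below 0.05 in edgeR's quasi-likelihood test over all 598 miRNAs. By this rule 60 miRNAs, or 10% of all tested, were called, with 3.68% higher and 6.35% lower in M2-exo, and 0 of the 3 members were called. The members had unadjusted p-values of 0.528 to 0.824 in edgeR, so 0 were below 0.05, and the other tool, DESeq2, also called 0. At an adjusted p below 0.05 in edgeR, 8.86% of all miRNAs passed, and 0 of the 3 members did. The group ranges were separate for 19.1% of all miRNAs, and for 0 of the 3 members.

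miR-29a-3p was the main member of the family in these exosomes. Its counts were 955, 896 and 530 for M0-exo (replicates 1, 2 and 3) and 500, 578 and 646 for M2-exo. After TMM scaling, which removes differences in library size and composition, these were 611, 716 and 570 CPM for M0-exo and 585, 693 and 739 CPM for M2-exo. The highest library was M2-exo replicate 3 and the lowest was M0-exo replicate 3, and the groups overlapped. The mean was 632 ± 75.0 CPM for M0-exo and 672 ± 78.7 CPM for M2-exo (SD, n = 3 each). The log2 fold change was 0.09 (SE 0.14, 95% interval -0.19 to 0.36), with an adjusted p of 0.779 in edgeR's quasi-likelihood test. The interval of the fold was 0.879 to 1.29, and its ends lay inside the threshold of 0.5 on the log2 scale. Over the alternatives the ends reached -0.511 and 0.505, just past that threshold. An exact two-sided permutation test on the CPM gave p = 0.7, where 3 libraries against 3 cannot go below 0.1.

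The sign of that difference rested on the scaling. Without scaling beyond the library total, miR-29a-3p was at 682 ± 83.6 CPM for M0-exo and 624 ± 78.3 CPM for M2-exo, and the log2 fold change was -0.13 with an adjusted p of 0.631 in edgeR. This setting moved the median over all miRNAs from 0.03 to -0.18. An offset for the GC content of the miRNAs also turned the sign, to -0.20 (adjusted p = 0.587, edgeR). miR-29a-3p has a GC content of 40.9%.

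miR-29b-3p was present at a lower level. Its M0-exo libraries held 94, 94 and 68 counts and its M2-exo libraries 68, 68 and 62, or 60.2, 75.1 and 73.1 against 79.6, 81.5 and 70.9 CPM after TMM scaling. M0-exo replicate 1 was the lowest library, and M2-exo replicate 3 lay among the M0-exo libraries. The mean was 69.5 ± 8.09 CPM for M0-exo and 77.3 ± 5.66 CPM for M2-exo (SD, n = 3 each). The log2 fold change was 0.16 (SE 0.32, 95% interval -0.47 to 0.79), with an adjusted p of 0.835 in edgeR. The interval reached past a log2 fold change of 0.5, so a rise of about that size is not excluded. Its lower end lay inside -0.5 in this fit and in some of the alternatives, but not in all. Over the alternatives it reached -0.90, so a fall of that size is not excluded either. The sign turned to -0.060 without scaling and to -0.27 with the GC offset.

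The table listed miR-29b-3p for each of its precursors. The mir-29b-1 entry held 442 counts in all and the mir-29b-2 entry, which was used, held 454. They were equal in 4 of the 6 libraries and differed by 9 counts in M0-exo replicate 1 and by 3 counts in M0-exo replicate 3. With the mir-29b-1 entry in its place, an alternative chosen after seeing the data, the log2 fold change was 0.22 (adjusted p = 0.758, edgeR).

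miR-29c-3p, which differs from miR-29a-3p by a single base, was near the limit of detection. Its counts were 15, 2 and 5 for M0-exo and 6, 6 and 6 for M2-exo, or 9.60, 1.60 and 5.38 against 7.02, 7.19 and 6.86 CPM after TMM scaling. The highest and the lowest library were both M0-exo, and the M2-exo libraries lay between them. At 2 counts, M0-exo replicate 2 stood at 1.73 CPM of its unscaled total, with an exact 95% interval of 0.210 to 6.25 CPM. The log2 fold change was 0.33 with an SE of 1.52 and a 95% interval of -2.64 to 3.31, and the adjusted p in edgeR was 0.928. It was -0.10 without M0-exo replicate 2 and 1.01 (SE 1.84) without M0-exo replicate 1. Neither was called, the latter because its p-value was not below 0.05.

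**Figure D1:**
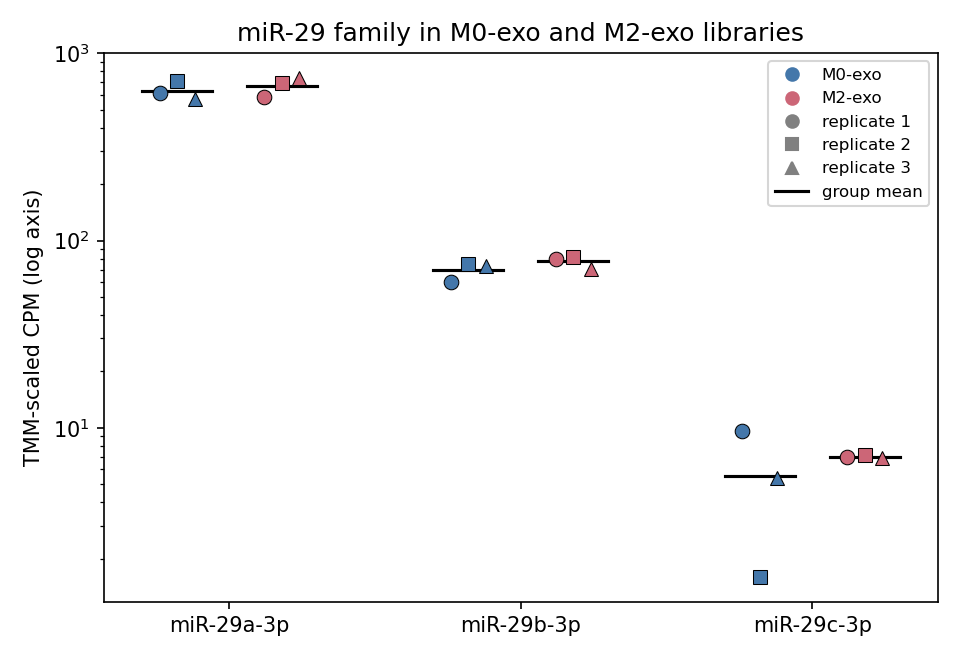
TMM-scaled CPM on a log axis (vertical) of each member (horizontal) in the 3 M0-exo and 3 M2-exo libraries, with a bar at each group mean and symbols for the replicates. The groups overlap for each member, at 570 to 739 CPM for miR-29a-3p, 60.2 to 81.5 CPM for miR-29b-3p and 1.60 to 9.60 CPM for miR-29c-3p.

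The order of the members was the same in each of the 6 libraries, with miR-29a-3p above miR-29b-3p above miR-29c-3p. The lowest level of miR-29a-3p, 570 CPM, was above the highest of miR-29b-3p, 81.5 CPM. The lowest level of miR-29b-3p, 60.2 CPM, was above the highest of miR-29c-3p, 9.60 CPM. By total counts, miR-29a-3p ranked 61, miR-29b-3p ranked 122 and miR-29c-3p ranked 278 among the 598 names. The members are of nearly equal length, but small RNA libraries capture sequences unequally, so the order is one of counts.

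Together the members had 4599 counts. Of these, 89.3% were miR-29a-3p, 9.87% were miR-29b-3p and 0.870% were miR-29c-3p. The ratio of miR-29a-3p to miR-29b-3p was 10.2, 9.53 and 7.79 over the M0-exo libraries and 7.35, 8.50 and 10.4 over the M2-exo libraries, so the extremes were both M2-exo libraries. The share of miR-29b-3p was 8.83%, 9.48% and 11.3% over the M0-exo libraries and 11.8%, 10.4% and 8.68% over the M2-exo libraries. miR-29c-3p amounted to between 0.223% and 1.57% of miR-29a-3p, both in M0-exo libraries.

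**Figure D2:**
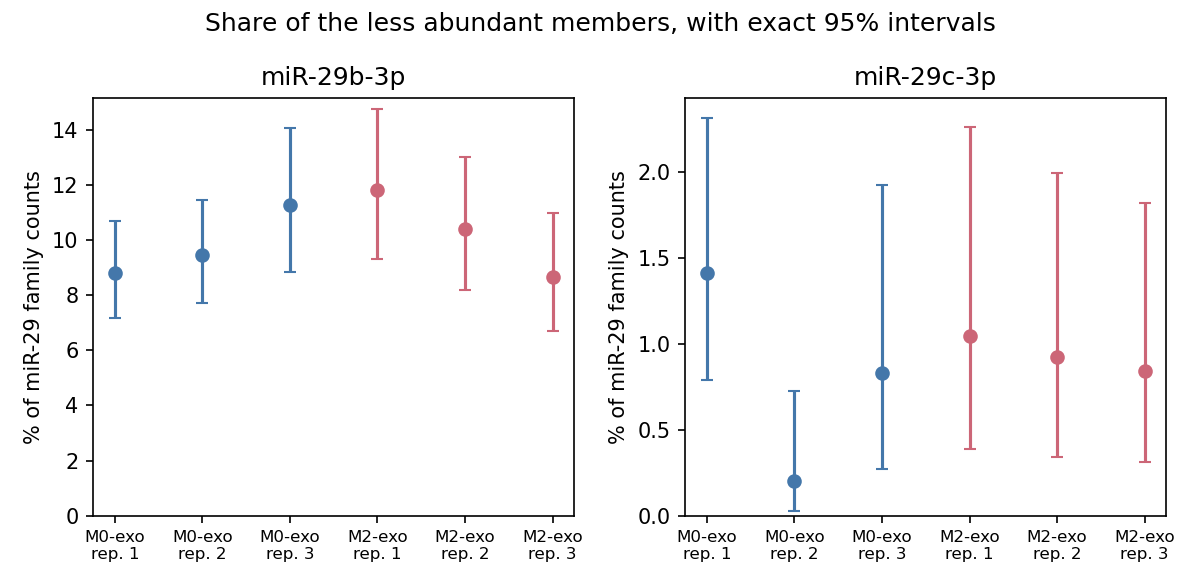
Percent of the family's counts (vertical) taken by miR-29b-3p (left) and miR-29c-3p (right) in each library (horizontal), with exact 95% binomial intervals that cover counting error only. The share of miR-29b-3p lies between 8.68% and 11.8%, and that of miR-29c-3p between 0.202% and 1.41%, with both extremes of the latter in M0-exo.

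The summed level of the family was 681, 792 and 648 CPM for M0-exo and 672, 782 and 816 CPM for M2-exo after TMM scaling. The means were 707 ± 75.4 and 757 ± 75.4 CPM (SD, n = 3 each), and the groups overlapped. As a share of all counts the family took 0.0612% to 0.0859%. Because let-7 miRNAs dominate these libraries, the share was also taken outside them, where it was 0.277% to 0.342%, with the lowest value in M2-exo replicate 1 and the highest in M0-exo replicate 2.

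**Figure D3:**
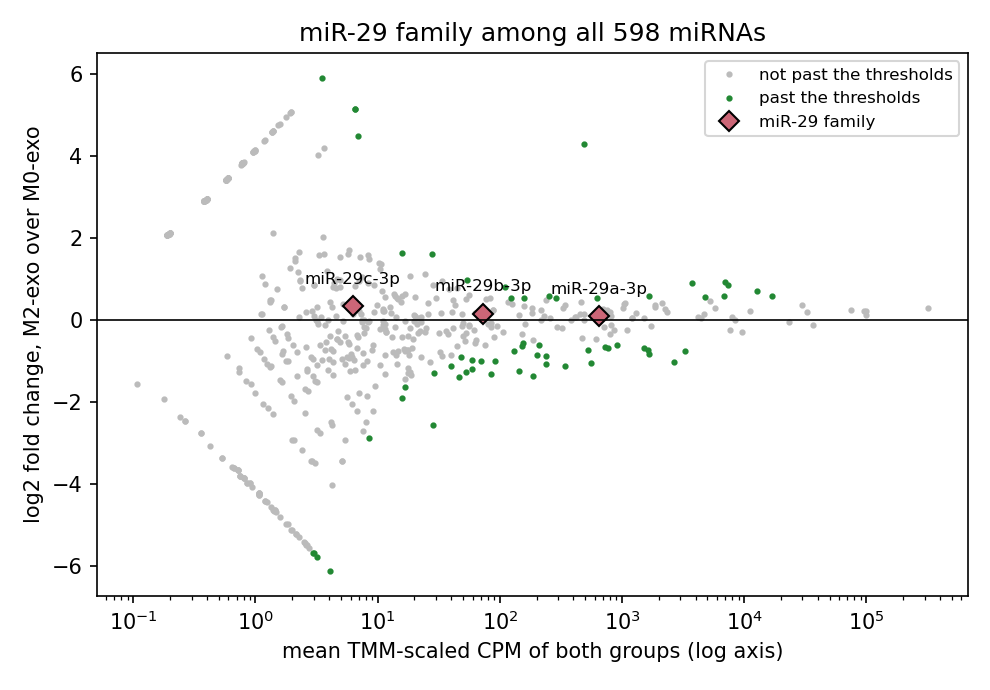
Log2 fold change of M2-exo over M0-exo (vertical) against the mean TMM-scaled CPM on a log axis (horizontal) for all 598 miRNAs, with the 60 called ones in green and the family as diamonds. The members lie at 0.09, 0.16 and 0.33, with the spread of the other miRNAs widening towards low levels where miR-29c-3p lies.

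The 5′ arms of the hairpins were sparser. miR-29b-1-5p, the other arm of Mir29b-1, was counted 40, 37 and 4 times for M0-exo and 17, 16 and 6 times for M2-exo. In each group replicate 3 was the lowest. Its log2 fold change was -0.38 (SE 0.75), with an adjusted p of 0.820 in edgeR. Pooled over the libraries, its counts were 20.9% of those of both arms when all miR-29b-3p counts were set against it, although some of these may come from Mir29b-2. miR-29c-5p was counted 0, 9 and 0 times for M0-exo and 3, 4 and 0 times for M2-exo, and its value in M0-exo replicate 2 exceeded the 2 counts of miR-29c-3p there. miR-29a-5p and miR-29b-2-5p were not analysed here.

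For context, miRNAs studied in matrix and fibrosis were listed, of which 12 of 16 were in the table. Of the 12, 2 were called higher in M2-exo, 0 were called lower and 10 were not called, against 3.68% of all miRNAs called higher. The median log2 fold change of the list was 0.56, against 0.03 over all 598, and 3 of its members were at or under 3 counts in each library of a group. That median leaned on sparse members. The largest values were 3.46 (miR-199a-5p), 2.90 (miR-101a-3p), 1.66 (miR-192-5p) and 1.60 (miR-19b-3p), with 3, 2, 12 and 47 counts in all. The 7 members that averaged 10 or more counts ranged from -0.06 (miR-200c-3p) to 0.85 (miR-143-3p). Their middle value was 0.19 (miR-185-5p). miR-26a-5p, a repressor of the methyltransferase Ezh2, rose from 3867 ± 355 to 5751 ± 421 CPM (SD, n = 3 each), a log2 fold change of 0.57 (SE 0.09) with an adjusted p of 7.5e-08 in edgeR. Its groups did not overlap. With a minimum mean of 10 counts its adjusted p in edgeR was 3.4e-04. miR-21a-5p, which is raised in many fibrotic tissues, rose from 235 ± 85.1 to 346 ± 42.8 CPM, a log2 fold change of 0.55 (SE 0.18) with an adjusted p of 0.0258 in edgeR, and its groups overlapped. Its adjusted p was 0.188 in DESeq2 and 0.102 in edgeR with a minimum mean of 10 counts, though it was still called in both. Without M0-exo replicate 3 its log2 fold change was 0.32 and without M2-exo replicate 3 it was 0.47, and neither was called. Neither miR-26a-5p nor miR-21a-5p was called with the GC offset, at 0.31 and 0.21, or without scaling, at 0.35 and 0.33.

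miR-30c-5p, which targets connective tissue growth factor, had a log2 fold change of 0.13 (adjusted p = 0.813, edgeR), and miR-185-5p had one of 0.19 (adjusted p = 0.511, edgeR). miR-143-3p, a smooth muscle miRNA, was counted 30, 23 and 22 times for M0-exo and 30, 19 and 46 times for M2-exo, which was not called (adjusted p = 0.502, edgeR). miR-155-5p, a miRNA of inflammatory macrophages, fell from 755 ± 74.2 CPM in M0-exo, where miR-29a-3p was at 632 CPM, to 368 ± 28.1 CPM in M2-exo. The log2 fold change of miR-155-5p, -1.04 (SE 0.15, adjusted p = 1.85e-10, edgeR), lay outside the interval of miR-29a-3p. With a minimum mean of 10 counts its adjusted p in edgeR was 7.9e-05.

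**Figure D4:**
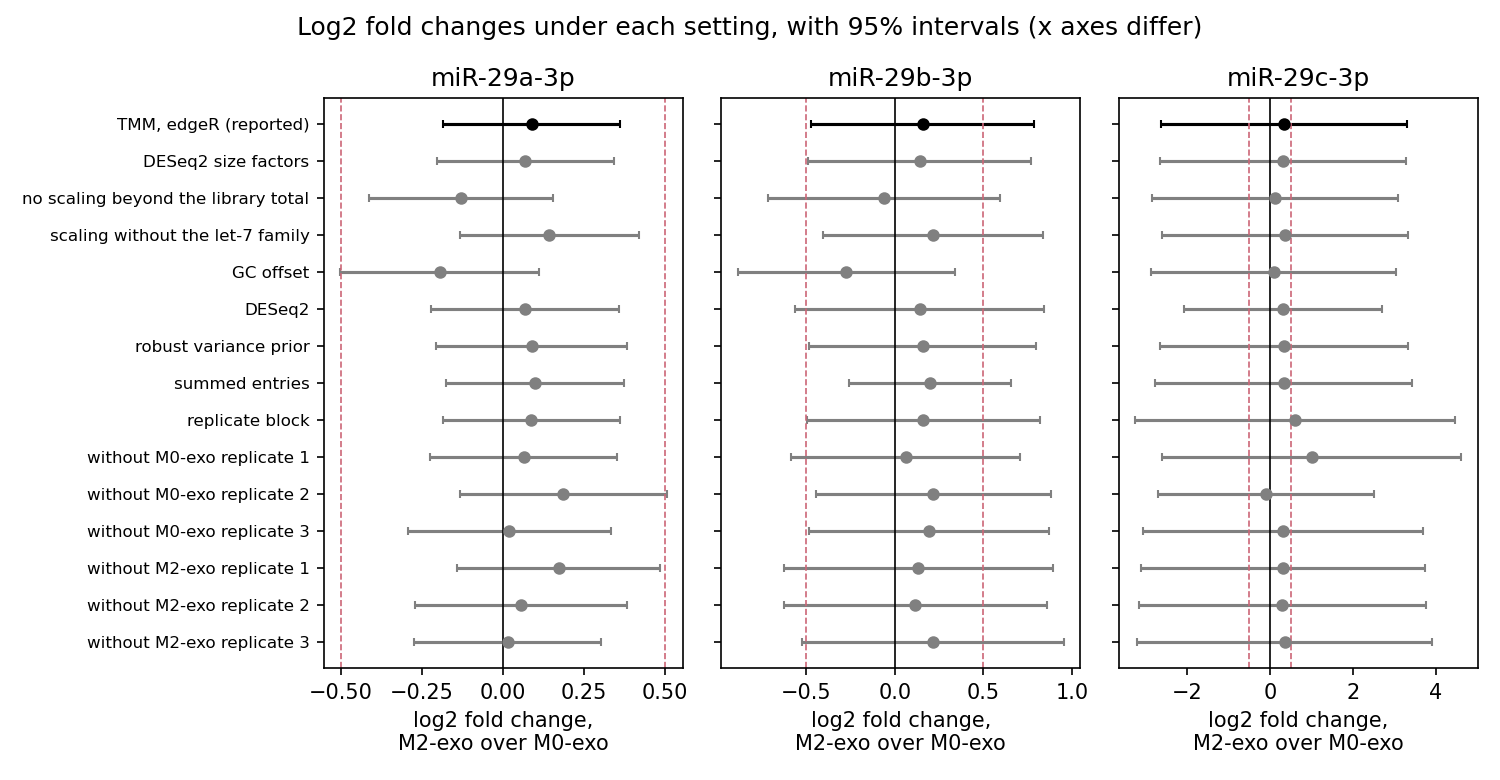
Log2 fold change of M2-exo over M0-exo (horizontal, with different axes for the 3 members) under the reported setting in black and the alternatives in grey (vertical), with 95% intervals as bars and dashed lines at -0.5 and 0.5. No estimate is called. Those of miR-29a-3p lie between -0.20 and 0.19, and miR-29c-3p has intervals several times wider than the other members.

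The miRNAs whose levels followed miR-29a-3p most closely over the 6 libraries were found by Pearson's r of TMM-scaled log2 CPM among 240 miRNAs with a mean of at least 10 counts. The closest was miR-151-5p (r = 0.896), at 4330 CPM for M0-exo and 4457 CPM for M2-exo. It was followed by miR-547-3p (r = 0.872), miR-127-3p (r = 0.817), miR-6993-5p (r = 0.773) and miR-27b-3p (r = 0.758). miR-29b-3p ranked only 104, with r = 0.141. The points share libraries and scaling, and miR-29c-3p was below the minimum and was not compared.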

How the data were processed

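Small RNA of 3 M0-exo and 3 M2-exo samples was analysed from 1 deposited table of raw counts per mature miRNA and precursor. The authors also deposited RPM values, which were not tested. The submitters' processing notes name mm39. The aligner, counter and miRNA release are not given in the sources used here. Of the entries sharing a name, that with the most counts was kept, so 598 of 638 entries remained. Counts were compared with edgeR 4.0.16 in R 4.3.3 (TMM, glmQLFit and glmQLFTest with defaults, no covariates), with Benjamini-Hochberg adjustment over all names. The thresholds follow the study, whose methods name R 4.3.3 and refer to supplementary scripts that were not used here, so the package of its test is not known here. DESeq2 1.42.0, other scalings, filters, entries, a GC offset, a replicate block and each library left out were alternatives. The steps were tested on simulated data. Same-numbered libraries did not deviate together (r = -0.0533, 0.0045 and -0.0395), so the groups were not paired. Positions are from GRCm38, not from the table. The named miRNAs were the members, their other arms, the 5 most like miR-29a-3p and fixed matrix and marker lists. The members and lists were chosen with earlier results of these data known.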

Additional observations from a re-analysis of the deposited data

How the results depend on the processing

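None of the 3 members was called under any alternative run. With no scaling beyond the library total, miR-29a-3p and miR-29b-3p turned to -0.13 and -0.060, and 10 miRNAs were called higher and 63 lower, against 22 and 38. With the GC offset they turned to -0.20 and -0.27 (22 higher, 29 lower). The GC offset was first computed with deviations of unscaled CPM and TMM-scaled library sizes, which applied the scaling over again. After that output was seen (0.015 and -0.067, with 44 higher and 14 lower), both were put on the TMM scale. The same offset with library totals throughout, also added after seeing the data, gave -0.20 and -0.28. With a log2 fold change of 1 or more in size required, 27 miRNAs were called. Leaving out 1 library gave 51 to 74 calls, 0.01 to 0.19 for miR-29a-3p, 0.06 to 0.22 for miR-29b-3p and -0.10 to 1.01 for miR-29c-3p, the lowest without M0-exo replicate 2. With the replicate block there were 56 calls and the log2 fold changes were 0.09, 0.16 and 0.60, and no member was called. Without M2-exo replicate 3, which stood apart in miR-122-5p, they were 0.01, 0.22 and 0.35. Under the minimum mean of 10 counts miR-29c-3p gave no value. The cause of these changes was not tested. Depth limits miR-29c-3p most, at 2 to 15 counts per library.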
